A study of Homo sapiens with 12 samples.

Results

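Interferon regulatory factors (IRFs) are transcription factors that share a DNA-binding domain and switch on interferon genes or the genes that interferons induce. The transcripts described here are those of 7 family members, IRF1, IRF2, IRF3, IRF5, IRF7, IRF8 and IRF9, chosen by name among the 38478 genes of the expression matrix, by a rule that uses no measured value, although earlier results of these data were known when the family was chosen. IRF4, a plasma cell factor, was not among them. RNA was sequenced from OPM-1 cells, a human multiple myeloma line, after 48 h in medium with DMSO, with AI-10-104 at 1 μM, with lenalidomide (LEN) at 0.1 μM, or with the pair at those doses (LEN+AI-10-104), and each condition had 3 samples. LEN binds cereblon and directs the transcription factors IKZF1 and IKZF3 to degradation, and AI-10-104 is an inhibitor of RUNX transcription factors that acts on their pairing with CBFβ. All 4 conditions are 1 cell line, so that the values speak for OPM-1 cells alone. The comparisons ask which factor responded to LEN, to AI-10-104 or to both.

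IRF3 and IRF7 are held inactive in the cytoplasm until kinases downstream of nucleic acid sensors phosphorylate them, after which they induce type I interferon genes. Interferon receptors then act through the complex ISGF3, which holds STAT2 and IRF9, and interferon gamma induces IRF1. IRF1 activates genes of antigen presentation, IRF2 binds the same sites and can oppose IRF1, IRF5 acts downstream of Toll-like receptors, and IRF8 works with ETS-family partners in B cells and myeloid cells. Many of these factors are controlled by phosphorylation, which RNA levels do not report.

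The libraries held between 16352548 and 31386210 reads on genes, and the 3 LEN+AI-10-104 libraries were the shallowest as a group, with a median of 19417027 reads against 30219883 in DMSO. Summed plasma cell markers, 9 genes, ranged from 1384 to 1668 RPKM (reads scaled to gene length and library depth) over the samples and were highest in AI-10-104, at 1613 to 1668 RPKM. XBP1 weighs most in this sum, with a mean of 509 RPKM in DMSO and 632 in AI-10-104. Relative to DMSO, 7 of the 9 markers had a positive fitted value in AI-10-104, and PRDM1 and POU2AF1 did not. Summed T and NK cell, monocyte and stromal markers reached at most 1.07 RPKM in any sample. One library stood apart in its effect on the calls. When AI-10-104 replicate 2 was left out, the genes with a different response to AI-10-104 with and without LEN went from 0 to 540, and those that differed between AI-10-104 and DMSO went from 199 to 443. The calls of the 5 tested IRF genes stayed as they were without it.

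The upstream sequences of 2 members are shown because they hold short motifs bound by factors of the interferon pathway. RefSeq promoter entries on GRCh38.p14 matched 4 of the 7 members, namely IRF1, IRF5, IRF8 and IRF9, and not IRF2, IRF3 and IRF7. The 250 bases before each listed start were searched on both strands for TTCNNNGAA (GAS, the interferon gamma-activated site), GAAANNGAA (the core of the ISRE, the ISGF3 and IRF motif), TGTGGT (RUNX) and TGGGAA (IKZF). Capitals mark the GAS match, which in IRF9 overlaps a TGGGAA match that ends at the same base. The IRF1 stretch is chr5:132490778-132491023 on the minus strand, without 4 bases nearest the start that lie in a GENCODE exon. It lies inside the GENCODE v44 span of IRF1, chr5:132440440-132508719, so that it is upstream of the listed start only. The IRF9 stretch is chr14:24161191-24161220 on the plus strand, inside an exon of a readthrough transcript.
IRF1: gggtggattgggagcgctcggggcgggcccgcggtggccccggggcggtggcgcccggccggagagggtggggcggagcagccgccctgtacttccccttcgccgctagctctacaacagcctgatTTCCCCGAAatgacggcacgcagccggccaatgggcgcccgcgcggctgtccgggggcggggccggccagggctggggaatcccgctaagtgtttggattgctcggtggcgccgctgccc
IRF9: gaccacgtgatTTCTGGGAAaaggccctcc

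In IRF1 the match TTCCCCGAA lay 124 to 116 bases before the start, and no ISRE core, RUNX or IKZF letters were found in the window. In IRF9 the match TTCTGGGAA lay 63 to 55 bases before the start. Of 35116 promoter windows of the same length, 6.57% held the GAS letters, 6.88% the ISRE core letters, 11% the RUNX letters and 20.8% the IKZF letters. Neither an IRF5 nor an IRF8 window held GAS or ISRE core letters, whereas 1 IRF5 window and 1 IRF8 window held the RUNX letters. Both IRF8 windows held the IKZF letters, but these windows overlap and the match is the same genomic site in both. These matches are a description of the letters and not of binding.

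The 7 genes differed widely in level. Over the 12 samples IRF3 had a mean of 21.5 RPKM, IRF2 19.2, IRF1 11.1, IRF9 5.48, IRF8 1.48, IRF5 0.0572 and IRF7 0.00414. RPKM is per length, so that these levels can be set side by side between genes only as far as the lengths used fit the transcripts. Those lengths differed unevenly from the summed GENCODE exons, at 2831 against 3794 bases for IRF3, 1678 against 6471 for IRF9 and 4276 against 2612 for IRF7. The sample ranges of IRF3 and IRF2 overlapped, at 19.5 to 25.7 and 17.9 to 21.7 RPKM, and so did those of IRF5 and IRF7. Every other pair of neighbours in this order was separated in all samples. For comparison, IRF4 had a mean of 207 RPKM, with only 231 genes above it. Tests were restricted to the 11241 genes whose mean reached 0.5 RPKM, which kept IRF1, IRF2, IRF3, IRF8 and IRF9.

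**Figure D1:**
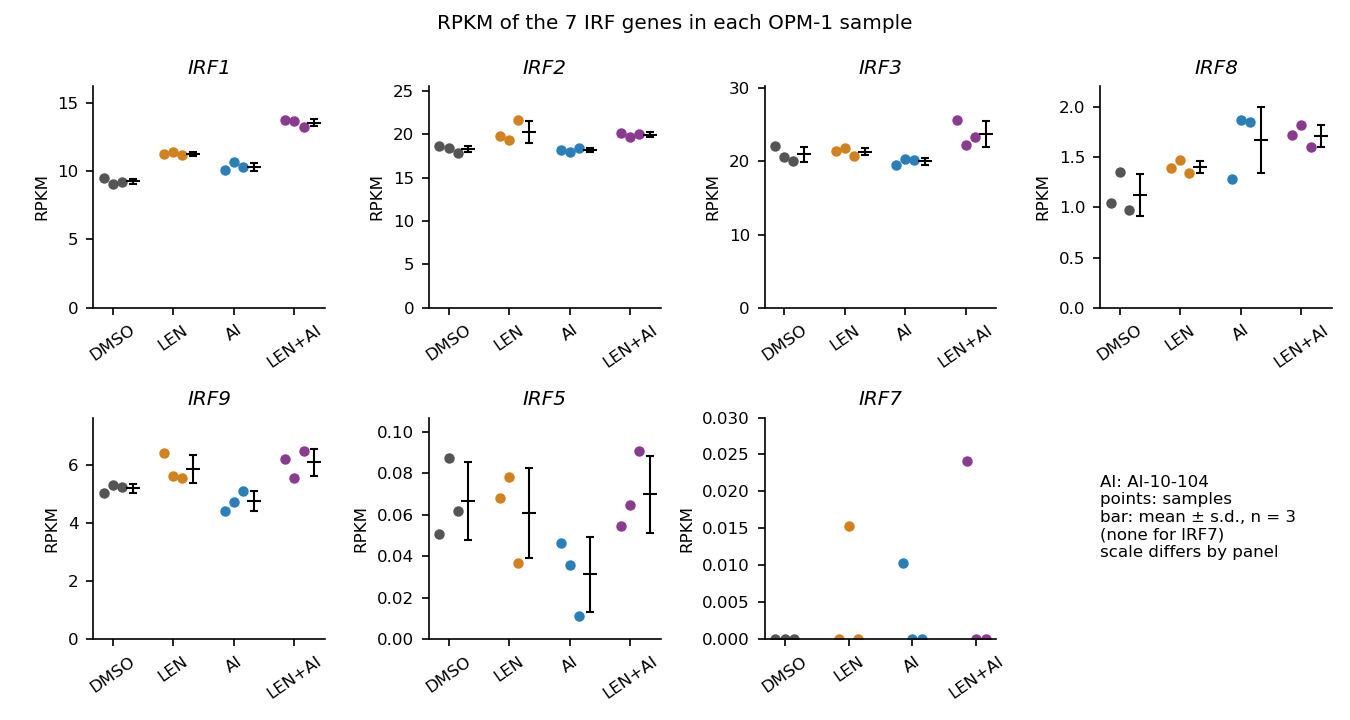
RPKM of the 7 IRF genes (vertical axis, 1 scale per panel, from 0) in each OPM-1 sample by condition, with the mean ± s.d. of 3 samples beside the points for all genes but IRF7. The 3 LEN+AI-10-104 samples of IRF1 sit between 13.2 and 13.8 RPKM, above the other 9, while IRF5 and IRF7 are near 0 in every condition.

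IRF1 rose in the combination and had the smallest adjusted p of the members there. The gene lies at chr5:132440440-132508719 on the minus strand (GRCh38, GENCODE v44). The DMSO samples held 9.47, 9.05 and 9.22 RPKM of IRF1, the LEN samples 11.2, 11.4 and 11.2, the AI-10-104 samples 10.1, 10.6 and 10.3, and the LEN+AI-10-104 samples 13.8, 13.7 and 13.2. The 4 conditions did not overlap, and their order was DMSO, AI-10-104, LEN and LEN+AI-10-104. The values are shares of each sample's reads, so that more transcript per cell and more cells with the transcript cannot be told apart.

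Fold changes were fitted on log2(RPKM + 0.1), which understates changes of low genes, and a gene was called when the Benjamini-Hochberg adjusted p from limma over all tested genes was at most 0.05 and the log2 fold change at least 0.32 in size. IRF1 rose in LEN+AI-10-104 relative to DMSO by 0.55 (s.e. 0.036), a fold of 1.46, with a limma adjusted p of 3.6e-06. It stayed called in all 12 fits that left out 1 sample, between 0.53 and 0.57. In this comparison 2 of the 5 tested members were called, IRF1 and IRF8, both higher, where 2.94% of all tested genes were called and 2.3% were called higher. All 5 had the 3 combination samples above the 3 DMSO samples, as had 18.1% of all tested genes. With the adjusted p alone, 2 of 5 passed, against 8.64% of all tested genes.

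With single drugs IRF1 was higher than in DMSO by 0.28 in LEN (95% interval 0.21 to 0.36, limma adjusted p = 0.0027) and by 0.16 in AI-10-104 (0.08 to 0.24, adjusted p = 0.028). Both passed the adjusted p and stayed under the fold-change bound, so that neither was called. The AI-10-104 value also rested on the samples used, since its adjusted p ranged from 0.032 to 0.11 when 1 sample was left out. Relative to LEN, the addition of AI-10-104 gave a further 0.27 (limma adjusted p = 0.0015), again under the bound. Relative to AI-10-104, the addition of LEN raised IRF1 by 0.39 (fold 1.31, limma adjusted p = 0.0002), a call that held in all 12 fits without 1 sample. Between the single drugs, LEN was higher than AI-10-104 by 0.12 (limma adjusted p = 0.041).

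The sum of the single-drug values of IRF1 was 0.44, against 0.55 in the combination. The difference of 0.11 had a 95% interval from -0.0046 to 0.22 and a limma adjusted p of 0.36, and the interval holds both no departure from the sum and an excess of up to 0.22. The interaction test called 0% of all tested genes, while 14.4% had an unadjusted p under 0.05 in limma, and limma voom on recovered reads called 3 genes. The comparisons with DMSO share the same 3 DMSO samples and are not independent of each other.

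**Figure D2:**
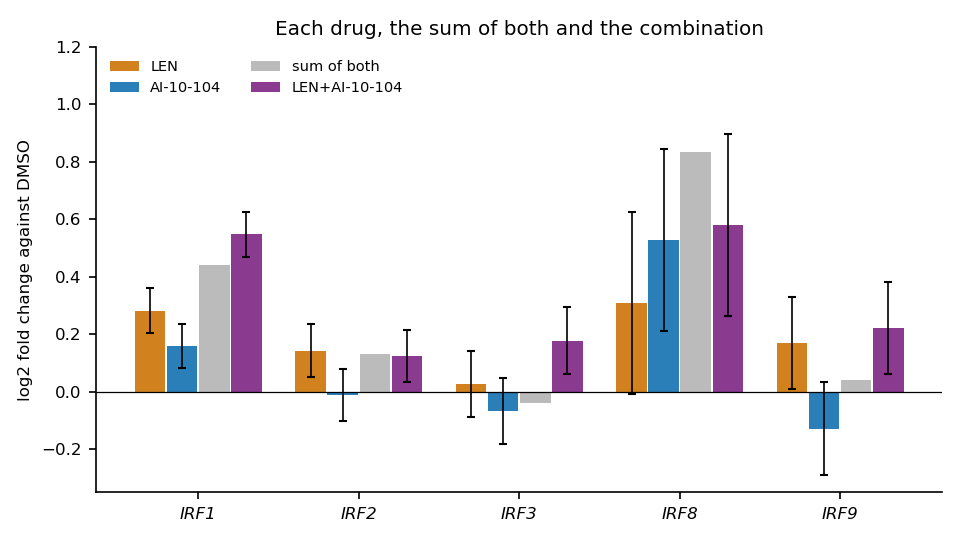
Fitted log2 fold changes against DMSO (vertical axis) of the 5 tested IRF genes for LEN, AI-10-104, the sum of both and LEN+AI-10-104, with 95% intervals on the 3 fitted values. The combination reached 0.55 in IRF1 against a sum of 0.44, and 0.58 in IRF8 against a sum of 0.84.

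The annotated IRF1 gene overlaps IRF1-AS1 (C5orf56 in the matrix), a long noncoding RNA on the opposite strand. Its mean was 3.16 ± 0.379 RPKM under DMSO (s.d., n = 3), 3.66 ± 0.491 under LEN, 3.04 ± 0.275 under AI-10-104 and 4.91 ± 0.041 with both drugs. It rose in the combination by 0.62 relative to DMSO (limma adjusted p = 0.0037) and by 0.42 relative to LEN (adjusted p = 0.038). The overlap is one of annotated spans, and exon bases shared by the 2 genes were not looked for. The matrix gives IRF1 a length of 3570 bases, against 12265 exon bases in GENCODE v44. The library kit keeps strand, but the strand setting of the counting is not given in the sources used here. Reads on any shared exon bases therefore cannot be told apart. The genes whose levels followed IRF1 most closely over the 12 samples were KIAA0930 (Pearson r = 0.975), GLIPR2 (r = 0.971) and PTK2B (r = 0.970). These correlations share libraries and conditions and are given as a description.

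IRF8, at chr16:85899116-85922606 on the plus strand, was low and variable. The DMSO samples had 1.04, 1.35 and 0.970 RPKM, LEN 1.39, 1.47 and 1.34, AI-10-104 1.29, 1.87 and 1.85, and LEN+AI-10-104 1.72, 1.81 and 1.60. Every combination sample lay above every DMSO sample, whereas the single-drug groups each overlapped DMSO. Between 55 and 147 reads stood behind each value, the fewest of the tested members.

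IRF8 rose in LEN+AI-10-104 relative to DMSO by 0.58 (s.e. 0.15, fold 1.49, limma adjusted p = 0.030). The call was made in 7 of 12 fits that left out 1 sample and was lost without DMSO replicate 1, DMSO replicate 3 or any of the 3 combination samples, with an adjusted p of up to 0.11 and a value between 0.49 and 0.71. It was also lost without the filter on low values and with quantile normalization. In AI-10-104 alone the value was 0.53 (95% interval 0.21 to 0.85, limma adjusted p = 0.062), and 0 of 5 members were called in this comparison, where 1.77% of all tested genes were. That value was called without DMSO replicate 2, at 0.66, and without AI-10-104 replicate 1, at 0.69, and it was also called by limma voom on recovered reads. In LEN alone it was 0.31 (-0.0091 to 0.63, limma adjusted p = 0.49). The combination differed from AI-10-104 by 0.05 (-0.27 to 0.37), an interval that holds changes of either sign.

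Taken against the sum of the single drugs, 0.84, the combination value of IRF8 was lower by 0.26, with a 95% interval from -0.70 to 0.19 and a limma adjusted p of 0.57. The closest genes over the 12 samples were STK3 (Pearson r = 0.865), SNORD4A (r = 0.847) and SNORA65 (r = 0.845). The last 2 are small nucleolar RNAs, which poly(A) selection captures poorly.

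IRF9, the DNA-binding subunit of ISGF3, lies at chr14:24161234-24168043 on the plus strand. The DMSO samples held 5.03, 5.30 and 5.26 RPKM, the LEN samples 6.41, 5.63 and 5.57, the AI-10-104 samples 4.42, 4.73 and 5.12, and the LEN+AI-10-104 samples 6.23, 5.58 and 6.48. The LEN and combination samples all lay above DMSO, and the AI-10-104 samples overlapped DMSO. Relative to DMSO, IRF9 was at 0.17 in LEN (limma adjusted p = 0.43), at -0.13 in AI-10-104 (adjusted p = 0.34) and at 0.22 in the combination (adjusted p = 0.087), and none of these was called. In LEN against DMSO 0 of 5 members were called, where 0.649% of all tested genes were.

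The addition of LEN to AI-10-104 raised IRF9 by 0.35 (s.e. 0.074, fold 1.28, limma adjusted p = 0.013). With IRF1 it made 2 of 5 members called in that comparison, both higher, against 3.63% of all tested genes called and 3.16% called higher. The IRF9 call was lost without AI-10-104 replicate 1, at 0.30, and without combination replicate 1 or 3, at 0.33 and 0.31, and also with a pseudocount of 1 and with quantile normalization. LEN alone was above AI-10-104 alone by 0.30 (limma adjusted p = 0.022), under the fold-change bound, and 0 of 5 members were called in this comparison, where 3.97% of all tested genes were. Without LEN replicate 2 or 3 or AI-10-104 replicate 3 this IRF9 value was called, at 0.33, 0.33 and 0.35. A readthrough gene of the same strand spans IRF9 in GENCODE and has no row of its own in the matrix.

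IRF2 is at chr4:184385702-184474558 and IRF3 at chr19:49659569-49665875, both on the minus strand. For IRF2 the DMSO samples held 18.7, 18.4 and 17.9 RPKM, the LEN samples 19.8, 19.3 and 21.7, the AI-10-104 samples 18.1, 18.0 and 18.4, and the LEN+AI-10-104 samples 20.2, 19.7 and 20.1. All samples with LEN lay above all samples without it. The values were 0.14 in LEN relative to DMSO (95% interval 0.05 to 0.23, limma adjusted p = 0.17), -0.01 in AI-10-104 (-0.10 to 0.08) and 0.13 in the combination (0.03 to 0.22, adjusted p = 0.091). Relative to AI-10-104, LEN alone was higher by 0.15 and the combination by 0.14 (limma adjusted p = 0.032 and 0.049). No comparison called IRF2.

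For IRF3 the DMSO samples held 22.1, 20.7 and 20.1 RPKM, the LEN samples 21.4, 21.8 and 20.8, the AI-10-104 samples 19.5, 20.3 and 20.2, and the LEN+AI-10-104 samples 25.7, 22.2 and 23.3. The combination samples lay above the other 9, by a narrow margin in replicate 2, and the single-drug samples overlapped DMSO. Relative to DMSO the combination was higher by 0.18 (95% interval 0.06 to 0.29, limma adjusted p = 0.060), and LEN and AI-10-104 alone gave 0.03 and -0.07. Relative to AI-10-104 the combination was higher by 0.24 (limma adjusted p = 0.015), under the bound. The 5′ end of IRF3 overlaps BCL2L12 on the opposite strand, a gene with 18.4 RPKM under DMSO and 20.6 with both drugs (0.16, limma adjusted p = 0.062), and without the strand setting their reads cannot be told apart there.

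**Figure D3:**
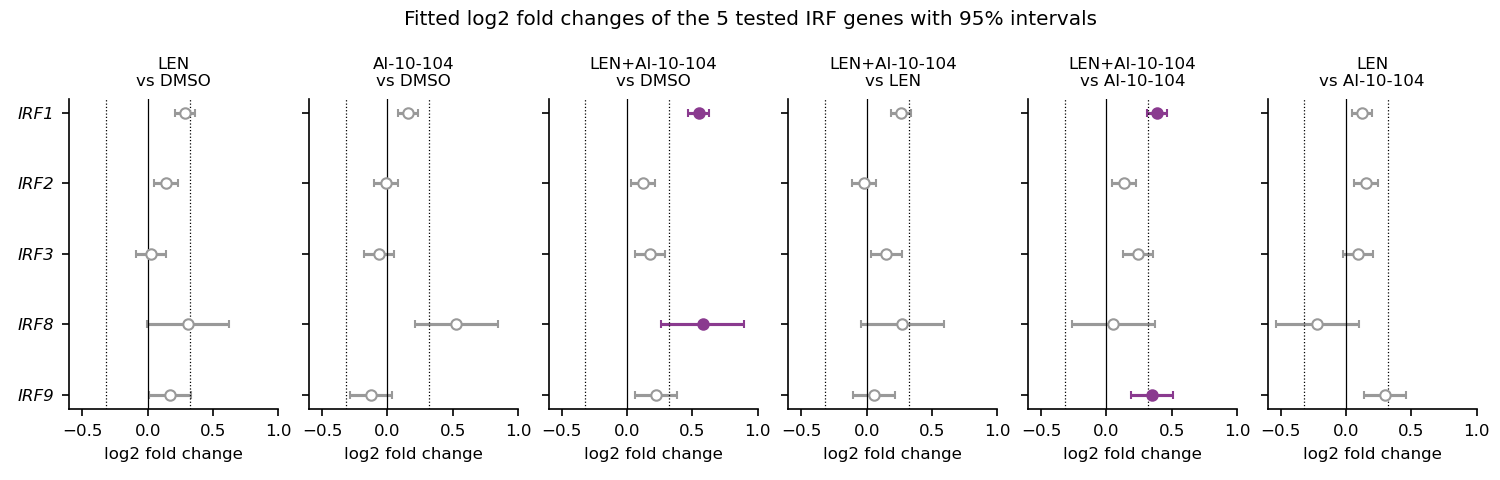
Fitted log2 fold changes (horizontal axis) of the 5 tested IRF genes in 6 comparisons, with 95% intervals. Filled points are called, and dotted lines mark 0.32 in either direction. Only IRF1 and IRF8 in the combination against DMSO, and IRF1 and IRF9 in the combination against AI-10-104, are filled.

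Of the 5 tested members, 0 were called in LEN+AI-10-104 relative to LEN, where 1.68% of all tested genes were called. By the adjusted p alone, 1 of 5 passed there (IRF1), against 4.62% of all tested genes. In LEN relative to DMSO and in AI-10-104 relative to DMSO it was also IRF1 alone, against 1.13% and 4.55%, in the combination relative to AI-10-104 it was 4 of 5, against 15%, and in LEN relative to AI-10-104 it was 3 of 5, against 13.8%. Groups that did not overlap, with the first condition higher, were found for 3 members in LEN relative to DMSO (9.42% of all tested genes), for 1 in AI-10-104 relative to DMSO (13.1%), for 3 in the combination relative to LEN (15.9%), for 4 in the combination relative to AI-10-104 (19%) and for 4 in LEN relative to AI-10-104 (15%). In the combination relative to LEN, IRF1 had 0.27, IRF8 0.27, IRF3 0.15, IRF9 0.05 and IRF2 -0.02. The AI-10-104 samples gave the lowest group mean of IRF3, IRF9 and IRF2, while those of IRF1 and IRF8 were above DMSO. Over the 12 samples, IRF1 had a Pearson r between 0.64 and 0.74 with each of the other 4 tested members, and IRF8 had 0.19 with IRF9 and 0.20 with IRF2. The points share libraries and conditions, so that these values describe the samples only.

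IRF5 (chr7:128937457-128950038, plus strand) was near the limit of detection. It had 1 to 10 reads in each sample, 0.0114 to 0.0907 RPKM, and totals of 21 reads under DMSO, 18 under LEN, 9 under AI-10-104 and 15 with both drugs. It was under the filter on low values, and no difference between conditions was tested.

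IRF7 (chr11:612553-615983, minus strand), the factor of type I interferon amplification, was listed at 0 in 9 of the 12 samples. LEN replicate 2 and LEN+AI-10-104 replicate 1 had 2 reads each (0.0153 and 0.0241 RPKM) and AI-10-104 replicate 1 had 1 read (0.0103 RPKM), and all 3 DMSO samples had 0. A count of 0 allows up to 3 reads, or 0.0224 to 0.0429 RPKM depending on the library, counting error only. These values may not be a measure of the transcript. IRF7 lies in a run of 10 protein-coding neighbours, RNH1, HRAS, LRRC56, LMNTD2, RASSF7, PHRF1, IRF7, CDHR5, SCT and DRD4, with means of at most 0.18 RPKM each, and HRAS, RNH1 and PHRF1 are in wide use among cells. The genes at both ends of the run, PTDSS2 and DEAF1, had 0.599 and 4.73 RPKM.

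In that run, 9 of the 10 genes had a deposited length above the summed GENCODE v44 exons, 4276 against 2612 bases for IRF7, as had 31.8% of 18251 matched protein-coding genes. The other 6 members had deposited lengths below their GENCODE exon sums. The run was singled out after its values were seen, and a link of the lengths to the low values was not tested. IRF7 is therefore given only as listed at or near 0.

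**Figure D4:**
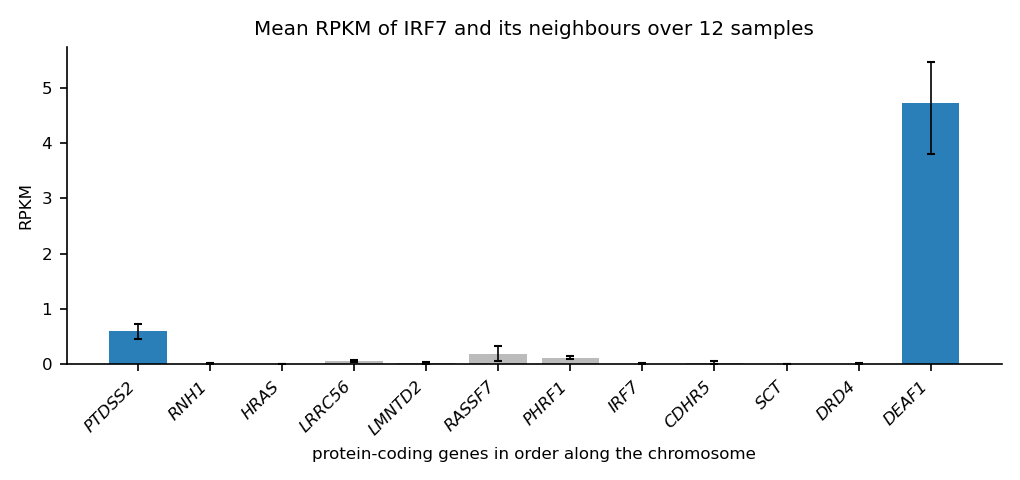
Mean RPKM (vertical axis) of 12 protein-coding genes in their order along the chromosome, with bars from the lowest to the highest of 12 samples. The 10 genes of the run, IRF7 included, are at or below 0.18 RPKM, between PTDSS2 at 0.599 and DEAF1 at 4.73.

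The pathway around the IRFs was described with lists of genes chosen by their known roles. Of 19 sensors, adaptors and kinases that activate IRF3, IRF5 or IRF7, 13 were tested and the median in the combination relative to DMSO was 0.08, against 0.02 over all tested genes. LEN raised 2, AI-10-104 raised 1 and the combination raised 3, and none was called lower, where 0.649%, 1.77% and 2.94% of all tested genes were called in either direction. The gene IFIH1, a cytosolic sensor of double-stranded RNA, rose with each treatment, by 0.38, 0.50 and 0.73 (limma adjusted p = 0.024, 0.002 and 8.2e-05), from 2.51 ± 0.138 RPKM in DMSO (s.d., n = 3) to 4.22 ± 0.201 in the combination. TMEM173 (STING), the adaptor of the cytosolic DNA sensor, rose with LEN by 0.50 and with the combination by 0.72 (limma adjusted p = 0.015 and 0.00039), and was at -0.06 in AI-10-104. IKBKE, one of the kinases of IRF3 and IRF7, rose in the combination by 0.44 (limma adjusted p = 0.00091). The other kinase, TBK1, was not called.

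The receptors TLR3, TLR7, TLR8 and TLR9 and the sensors DDX58 (RIG-I) and DHX58 were under the filter, and TLR8 was listed at 0. Of 10 interferon genes, 7 were listed at 0 in all samples, IFNA1, IFNA2 and IFNB1 among them. Only IFNG passed the filter, with 0.84 ± 0.0443 RPKM under DMSO and 0.815 ± 0.227 with both drugs (s.d., n = 3), and it was not called. An exact 0 may also be a failed estimate in this matrix.

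Of 19 IRF cofactors and partners, 18 were tested, and 1 was called in the comparisons with DMSO, a share near the 0.649%, 1.77% and 2.94% of all tested genes called. This was NMI, an interferon-induced partner of STAT proteins, which rose in the combination by 0.79 (limma adjusted p = 0.0033), from 1.10 ± 0.0749 to 1.98 ± 0.0659 RPKM (s.d., n = 3). The ISGF3 partner STAT2 followed LEN, at 0.28 under LEN, -0.00054 under AI-10-104 and 0.29 with both drugs (limma adjusted p = 0.010, 0.997 and 0.0025), under the fold-change bound. Of 12 receptor and signalling genes, 9 were tested, and 1 was called relative to DMSO, against the same shares of all tested genes. This was JAK2, a kinase of the interferon gamma receptor, at 0.47 in the combination (limma adjusted p = 0.023).

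ISGF3 target genes, the antiviral genes induced through IRF9, were mostly too low to test, with 12 of 36 above the filter. Relative to DMSO, 1 rose with LEN, 0 with AI-10-104 and 4 with the combination, and none was called lower, where 0.649%, 1.77% and 2.94% of all tested genes were called. The medians were 0.27, 0.06 and 0.38 against -0.0021, 0.0081 and 0.02 over all tested genes. By the adjusted p alone, 2 were higher and 0 lower in LEN, 0 and 1 in AI-10-104, and 6 and 1 in the combination. Of all tested genes, 1.13%, 4.55% and 8.64% passed. The lower ones were BST2 in AI-10-104, at -0.22, and SAMD9 in the combination, at -0.27 (limma adjusted p = 0.0089 and 0.026). BST2 was higher in LEN, at 0.30, and in the combination, at 0.18 (limma adjusted p = 0.0029 and 0.016). These BST2 and SAMD9 values all stayed under the fold-change bound. The gene UBE2L6, an ISG15-conjugating enzyme, rose with LEN by 0.43 and with the combination by 0.52 (limma adjusted p = 0.028 and 0.0029). In the combination IFI6 rose by 0.85, IFITM1 by 0.73 and EPSTI1 by 0.58 (limma adjusted p = 0.016, 0.021 and 0.0056). IFI6 rested on 13 to 33 reads per sample, and IFITM1 has close relatives whose reads the counting may have split.

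IRF1 target genes, mainly of antigen presentation and cell death, had 14 of 28 tested. LEN raised 3 of them, AI-10-104 raised 3 and the combination raised 5, and none was called lower, against the same shares of all tested genes, with medians of 0.18, 0.03 and 0.16 in turn. CIITA, the master regulator of MHC class II genes, had 2.20 ± 0.0626 RPKM under DMSO, 2.95 ± 0.0515 under LEN, 3.19 ± 0.111 under AI-10-104 and 4.54 ± 0.265 with both drugs (s.d., n = 3). It rose by 0.40, 0.51 and 1.01 (limma adjusted p = 0.0044, 0.00035 and 8e-07). APOL3, an apolipoprotein L gene, also rose with each treatment, by 0.90, 0.45 and 0.98 (limma adjusted p = 0.00067, 0.020 and 6.5e-05). CASP1, an inflammatory caspase, rose with LEN by 1.02 and with the combination by 0.78 (limma adjusted p = 0.018 and 0.020), and was at -0.23 in AI-10-104.

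HLA-B and HLA-C, class I antigen presentation genes, rose in the combination by 0.52 and 0.32 (limma adjusted p = 1.9e-05 and 0.012), with reads that near-identical HLA genes may share. The chemokine gene CXCL10 rose with AI-10-104 by 1.06 (limma adjusted p = 0.0498), on 8 to 29 reads per sample in DMSO and AI-10-104. CXCL10 counts among the 3 IRF1 target genes raised by AI-10-104. Its mean over all samples, 0.517 RPKM, barely passed the filter of 0.5. The AI-10-104 mean was 0.699 RPKM, whereas the DMSO mean of 0.293 was under the filter. With both drugs CXCL10 was at 0.90 relative to DMSO (limma adjusted p = 0.062) and was not called. Several defining targets were listed at or near 0, among them PSMB8 and HLA-E at 0 in every sample and TAP1 at a mean of at most 0.0035 RPKM in any condition. Nearly every nucleated cell uses HLA-E, so that these entries are given only as listed. IFIH1, NMI and EPSTI1 are among genes that the study itself picked from these samples, so that their direction is not independent evidence.

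**Figure D5:**
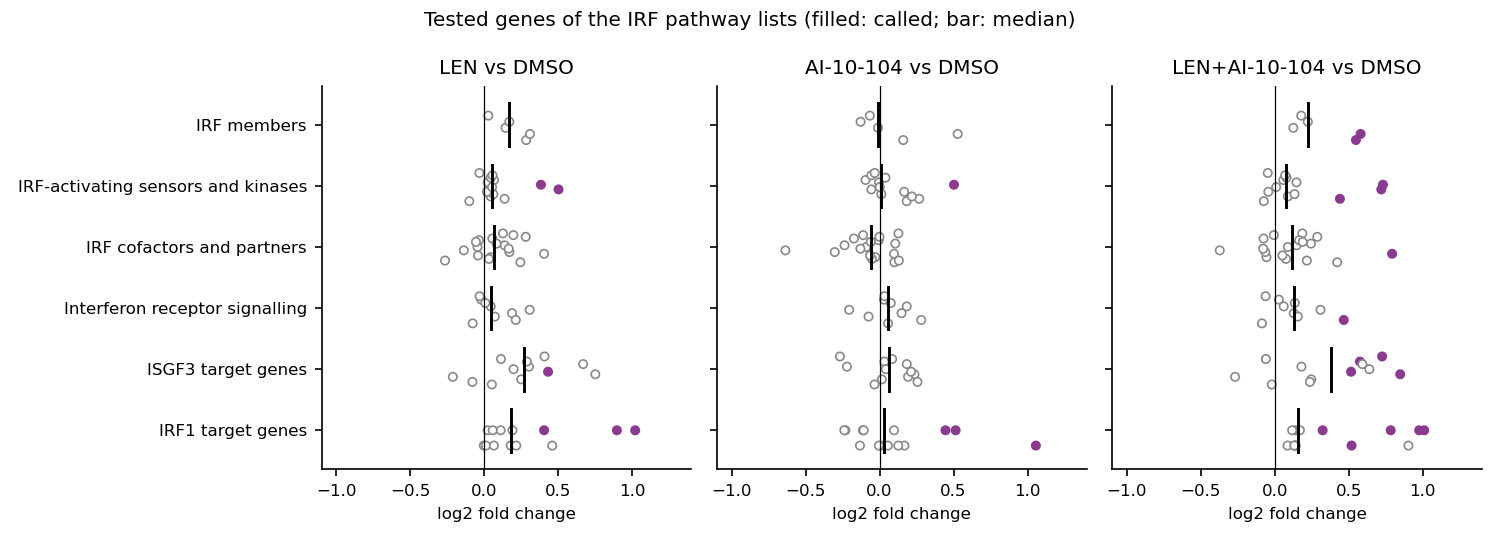
Log2 fold changes against DMSO (horizontal axis) of the tested genes of 6 lists in LEN, AI-10-104 and LEN+AI-10-104. Filled points are called genes and bars are list medians, which in the combination range from 0.08 for the sensors and kinases to 0.38 for the ISGF3 target genes.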

How the data were processed

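Per the labels and the study's methods, poly(A) RNA of OPM-1 cells was sequenced in 3 biological replicates per condition, reads were mapped to GRCh38 with STAR, and FastQC, Cuffnorm and DESeq2 were also named. The deposited matrix is named FPKM, but per the file headers it holds RPKM on gene lengths from featureCounts, and it was used as RPKM. In every library 100% of values were whole reads within 0.01, and reads were computed back from them for depth. limma 3.58.1 in R 4.3.3 was fitted to log2(RPKM + 0.1) of the 11241 genes whose mean reached 0.5 RPKM, with 1 mean per condition over all 12 samples and a variance trend. A call needed a Benjamini-Hochberg adjusted p of at most 0.05 and a log2 fold change of at least 0.32, or the adjusted p alone for the interaction. The members and lists were chosen with earlier results of these data known. Named were the 7 members, the list genes called relative to DMSO and, for each member so called, the 3 genes with the highest Pearson r. Genes named only as listed at or near 0, the neighbours of IRF7, IRF1-AS1, BCL2L12, STAT2, TBK1, BST2 and SAMD9 were named after their values were seen. Alternatives were another pseudocount, filter, scaling, fit, test on recovered reads, a replicate block and the omission of each sample. The fit was tested on simulated data. Some values are not reported here.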

Additional observations from a re-analysis of the deposited data

Results flagged for a closer look

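IRF3 was set apart because its AI-10-104 values relative to samples without it had opposite signs without and with LEN. The log2 value was -0.07 in AI-10-104 relative to DMSO (limma adjusted p = 0.50) and 0.15 in LEN+AI-10-104 relative to LEN (adjusted p = 0.13), and neither was called. The AI-10-104 samples overlapped the DMSO samples, although all 3 lay below the DMSO mean of 20.9 RPKM, and all 3 LEN+AI-10-104 samples lay above every LEN sample. IRF9 had the same signs, at -0.13 and 0.05, with overlapping groups in both comparisons. For IRF3 the difference between both values was 0.217 on the log2 scale (95% interval 0.05 to 0.38). Its unadjusted p was 0.014 from limma and its adjusted p was 0.28 over all tested genes, so that it failed the correction. The difference ranged from 0.16 to 0.26 over the 12 fits that left out 1 sample. Of all tested genes, 14.4% had an unadjusted limma p under 0.05 in this test. IRF3 was picked by this same difference, so that its p and range are not separate evidence.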

How the results depend on the processing

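Over 800 refits of member log2 fold changes, 764 kept their direction and their side of the threshold, 15 gained a call, 12 lost one and 9 changed sign. Sign changes were in values near 0. With 1 sample left out, IRF2 ranged from -0.027 to 0.0029 in AI-10-104 relative to DMSO, from -0.052 to 0.031 in the combination relative to LEN and from -0.041 to 0.042 in the interaction, IRF3 ranged from -0.0037 to 0.067 in LEN, and IRF8 ranged from -0.11 to 0.14 in the combination relative to AI-10-104. Quantile normalization took that IRF8 value to -0.022. With the adjusted p alone, members called were 1 in LEN, 1 in AI-10-104, 1 in the combination relative to LEN, 4 relative to AI-10-104 and 3 in LEN relative to AI-10-104, and all genes called were 127, 512, 971, 519, 1683 and 1546 over the 6 comparisons. IRF8 was not called in the combination without a filter or with quantile normalization, which left 1 member called, and IRF9 was not called relative to AI-10-104 with a pseudocount of 1 or quantile normalization, which also left 1. IRF8 was called in AI-10-104, making 1 member, by limma voom on recovered reads.

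Same-numbered samples had a mean correlation of deviations of 0.052 over 18 pairs, from -0.027 to 0.155. Samples of different numbers had a mean of -0.026 over 36 pairs, and all 12 samples correlated best with their own number. The correlations are small, so that they neither establish nor exclude a pairing, and the block is given as an alternative. A replicate block called 1 member, IRF8, in AI-10-104 relative to DMSO, and gave 79, 228, 368, 218, 473, 479 and 0 genes against 73, 199, 331, 189, 408, 446 and 0. The test on recovered reads gave 104, 282, 387, 213, 433, 497 and 3, and the fit without variance trend gave 1 in the interaction. Fits to the compared conditions only gave 113 genes for AI-10-104 relative to DMSO and 243 for the combination relative to AI-10-104. With 1 sample left out, members called ranged from 0 to 1 in AI-10-104, from 1 to 2 in the combination relative to DMSO or to AI-10-104, and from 0 to 1 between the single drugs. All genes called then ranged from 35 to 69 in LEN, from 119 to 443 in AI-10-104, from 239 to 342 in the combination, from 127 to 213 relative to LEN, from 183 to 764 relative to AI-10-104, from 310 to 692 between the single drugs and from 0 to 540 in the interaction, with the highest value without AI-10-104 replicate 2 in AI-10-104, relative to AI-10-104, between the single drugs and in the interaction. Quantile normalization gave 181 genes up and 111 down in the combination against 259 and 72, 64 and 120 relative to LEN against 98 and 91, and 248 and 90 relative to AI-10-104 against 355 and 53. Median-ratio rescaling gave 83 and 107 relative to LEN. The causes were not tested. Depth limits IRF8, with 55 to 147 reads, and leaves IRF5 and IRF7 without a test.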
